A study of Mus musculus with 17 samples.

Results

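Endothelial to mesenchymal transition genes are a set of 10 genes whose transcripts are used to follow endothelial cells that take on mesenchymal features. They comprise the contractile genes Acta2, Tagln and Cnn1, the transcription factors Snai1, Snai2, Zeb1, Zeb2 and Twist1, the filament gene Vim and the cadherin gene Cdh2. The set is defined by gene names, with no cut on measured values, and holds 10 of the 49585 Ensembl identifiers counted in each library, of which 26916 had at least 1 count. In this transition, endothelial cells lose junctional adhesion and gain contractile and matrix genes. Ligands of the TGF-beta family can start it through SMAD proteins, and SNAIL, ZEB and TWIST factors act downstream, in part by repressing cadherins of the starting cell. Endoglin, the product of Eng, is a TGF-beta family co-receptor of endothelial cells. Several of these genes are also used by pericytes, smooth muscle cells and marrow stromal cells, which lie next to the endothelium.

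The libraries came from mouse bone marrow endothelium, 17 in all, and compared wild-type (WT) mice with mice that lost Eng in endothelium (KO), at 2 and at 4 weeks after tamoxifen. In KO mice the Cre recombinase was the tamoxifen-dependent CreERT2 driven by the Cdh5 promoter, and loxP sites enclosed Eng exons 5 and 6 on both alleles. Every mouse received tamoxifen, which was started at 8 weeks of age, and the labels do not say whether WT mice carried Cre. The 2-week groups held 4 WT and 4 KO libraries, each with 2 females and 2 males; the 4-week groups held 5 WT libraries (2 females and 3 males) and 4 KO libraries (1 female and 3 males). Libraries are named by sex and number (f1, m2), and 1 female WT library has no number (f). Cells were sorted from crushed long bones as CD45-, Ter119-, CD31+ and Sca1+, per the labels' protocol; the series' own description gives the gate without Sca1. The assay was SmartSeq2, a full-length RNA-seq method that amplifies polyadenylated RNA and uses no molecular identifiers, so the floors given for counts of 0 cover counting error only. The labels do not say that libraries came from separate mice beyond their names, and p-values measure the spread between these libraries.

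Levels below are in CPM, the count of a gene scaled to the total count of its library. Library totals ran from 26705337 to 40882715 counts at 2 weeks and from 20477400 to 33726630 at 4 weeks. The time points differed in kind: 10886 to 13583 genes had a count in a 2-week library against 15996 to 21235 in a 4-week library, and mitochondrial genes held 22.2% to 29.5% of counts against 4.66% to 8.99%. At 2 weeks Eng itself ranged from 705 to 1307 CPM in WT libraries against 225 to 347 in KO libraries, and at 4 weeks from 2399.8 to 2735 against 274 to 1647. These ranges did not overlap (two-sided exact permutation test, p = 0.0286 and 0.00794, the smallest values these designs can give), although edgeR's adjusted p for Eng was 0.612 and 1. The 4-week KO library m2 kept the most Eng, at 1647 CPM, and 2-week KO f4 stood apart on the first principal component of its time point (28.7% of the variance); without either library 0 members passed between genotypes. All 10 endothelial markers were above the floor of 3 counts in every library. The labels give no preparation batch, and the 2 time points cannot be told apart from one.

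The members fell into 3 levels of detection. Acta2, Tagln, Snai2, Zeb1 and Vim were above 3 counts in all 17 libraries. Snai1 and Zeb2 were above it in 13 libraries each, Cdh2 in 9, Cnn1 in 8 and Twist1 in 1. Per kilobase of merged exon length, Vim had the highest mean level of the set in every group, at 358 ± 29.5 CPM per kilobase (SD, n = 4) for 2-week WT, 362 ± 64.1 (SD, n = 4) for 2-week KO, 494 ± 133 (SD, n = 5) for 4-week WT and 499 ± 188 (SD, n = 4) for 4-week KO libraries. Its lowest library stood above the highest library of the next member in each group. In the 4-week WT group the order was then Tagln at 96.5 ± 18.6 and Acta2 at 94.2 ± 33.6 CPM per kilobase, whose ranges overlapped, and Snai1 at 52.7 ± 13.95, which overlapped Acta2 in turn (SD, n = 5). Snai2 at 22.5 ± 7.89 lay below Snai1 without overlap, Zeb1 at 6.21 ± 1.57 below Snai2, and Cnn1 at 0.73 ± 0.71 below Zeb1 (SD, n = 5). Zeb2 at 0.31 ± 0.20, Cdh2 at 0.11 ± 0.09 and Twist1 at 0.01 ± 0.02 CPM per kilobase closed the list, each overlapping its neighbour (SD, n = 5). In the 4-week KO group Acta2 (104 ± 20.5) and Tagln (99.7 ± 19.2 CPM per kilobase) overlapped, and Snai1 (42.6 ± 13.3) lay below both (SD, n = 4). At 2 weeks Snai1 ranked below Zeb1, at 4.41 ± 5.09 against 7.44 ± 3.07 CPM per kilobase in WT with overlapping ranges (SD, n = 4), whereas at 4 weeks it ranked above Snai2. Among the 24079 genes with a count in that group, mean levels per kilobase put Vim at the 99.6th percentile, Acta2 at the 97.5th, Snai1 at the 95.5th, Zeb2 at the 36.9th and Twist1 at the 7.9th.

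**Figure D1:**
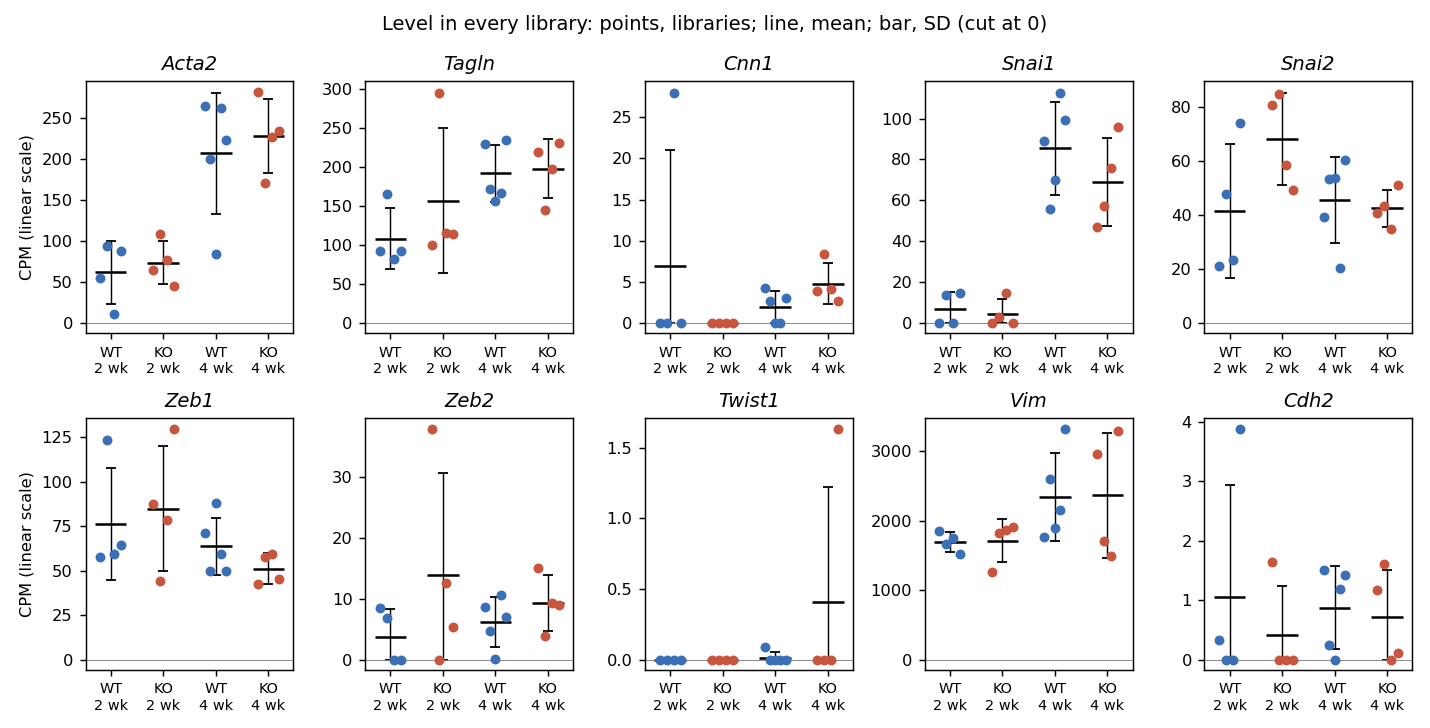
Level of each of the 10 genes in every library, in CPM on a linear scale with its own axis per gene. Points are libraries, blue for WT and red for KO, with the group mean as a line and the SD as a bar cut at 0; WT and KO points overlap at both times for every gene, and Snai1 lies at 47.2 CPM or more in all 4-week libraries against 15.0 CPM or less at 2 weeks.

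Loss of Eng was not accompanied by a change in any member that passed the test. At 2 weeks 0 of the 7 members tested passed an adjusted p of 0.05 in edgeR's quasi-likelihood test, 0 had an unadjusted p under 0.05, and in 0 did the WT and KO libraries not overlap. Over all 10477 genes tested at 2 weeks, 0% passed the adjusted threshold, 2.63% had an unadjusted p under 0.05 and 3.36% had groups that did not overlap. At 4 weeks the same counts were 0 of 9 members on all 3 measures, against 0%, 2.77% and 1.19% of 15209 genes. Cnn1, Twist1 and Cdh2 at 2 weeks and Twist1 at 4 weeks did not pass the filter on low counts. The median log2 fold change of the members tested was 0.25 at 2 weeks, beside -0.06 for all genes, and 0.04 at 4 weeks, beside 0.01. The DESeq2 alternative also called 0 members at either time, beside 1.42% of all genes at 2 weeks and 0.114% at 4 weeks. The change of the KO effect from 2 to 4 weeks passed for 0 of 9 members, where 0.0764% of 15703 genes passed; 1 member, Cnn1, had an unadjusted p under 0.05, beside 9.81% of all genes.

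Acta2 encodes smooth muscle alpha-actin, the contractile actin of smooth muscle cells, pericytes and myofibroblasts (chromosome 19, 34241090 to 34255590, minus strand, GRCm38). In WT at 2 weeks it was at 54.7 CPM in f1, 94.5 in f4, 10.8 in m2 and 87.7 in m3, and in KO at 64.5 in f1, 109 in f4, 77.2 in m2 and 45.7 in m3. The WT library m2 was the lowest, and the other libraries of both genotypes lay within one range. At 4 weeks WT libraries were at 264 in f, 201 in f3, 84.0 in m1, 262 in m2 and 224 CPM in m3, and KO libraries at 281 in f2, 171 in m1, 227 in m2 and 234 in m3. WT library m1 stood below all other 4-week libraries. The KO effect was 0.25 on the log2 scale at 2 weeks (SE 0.65, 95% interval -1.30 to 1.79) and 0.21 at 4 weeks (SE 0.30, interval -0.46 to 0.89), with edgeR's adjusted p = 1 at both. The interval at 2 weeks still holds changes of more than 1 log2 unit either way.

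Acta2 is a textbook target of serum response factor, which binds CArG boxes, and its RefSeq promoter was read for that reason. In the 250 bases before the RefSeq start it held 2 matches to a relaxed CArG box, with CC and GG around 6 bases of which at least 5 are A or T, at 84 and 34 bases before the start. Both are shown 5′ to 3′ on the gene's strand with the match in capitals (RefSeq, GRCm38.p6, minus strand, chr19:34255438-34255467 and chr19:34255388-34255417):
Acta2 site 84 bases before the start: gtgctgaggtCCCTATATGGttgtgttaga
Acta2 site 34 bases before the start: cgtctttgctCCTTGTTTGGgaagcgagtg
Such a relaxed match occurred in 8.59% of 32851 promoters of the same length, and the strict form with 6 A or T in 1.47%, searched on both strands. The GENCODE start of Acta2 used for the position above lies further upstream than the first of these sites. None of the other 5 members whose promoter could be printed held a CArG match of either form in its window.

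Tagln encodes transgelin, an actin-bundling protein of smooth muscle and an early marker of contractile differentiation (chromosome 9, 45929619 to 45936058, minus strand). Its WT libraries of 2 weeks were at 92.4 CPM in f1, 166 in f4, 82.9 in m2 and 92.5 in m3, and its KO libraries at 100.2 in f1, 296 in f4, 116 in m2 and 115 in m3. The f4 library was the highest of each genotype. At 4 weeks WT was at 229 in f, 172 in f3, 156 in m1, 167 in m2 and 235 CPM in m3, and KO at 219.7 in f2, 145 in m1, 198 in m2 and 230.4 in m3, within one range. Its KO effect was 0.52 (SE 0.37, 95% interval -0.37 to 1.41) at 2 weeks and 0.09 (SE 0.19, interval -0.34 to 0.52) at 4 weeks on the log2 scale, with edgeR's adjusted p = 1. The 2-week value was 0.10 without KO library f4 and 0.75 without KO f1. Exons of Tagln overlap those of Pcsk7 and Gm48529 on the opposite strand, and the strand setting of the counting is not given in the sources used here, so reads of the overlap cannot be assigned with certainty.

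Cnn1 encodes calponin, an actin-binding protein of mature smooth muscle (chromosome 9, 22099216 to 22109630, plus strand). At 2 weeks it had counts in a single library, WT m2, at 28.0 CPM, and 0 counts in the other 7 libraries. At 4 weeks it was at 4.33 CPM in WT f, 2.67 in f3 and 3.02 in m3, at 0 in m1 and m2, and at 3.96 in KO f2, 8.36 in m1, 4.22 in m2 and 2.73 in m3. It was detected in all 4 KO and in 3 of 5 WT libraries, and the ranges overlapped. The 4-week KO effect was 1.77 on the log2 scale (SE 1.63, 95% interval -1.94 to 5.47, edgeR's adjusted p = 1). It was 6.62 without WT library m3 and 1.23 without WT m2. A count of 0 allows up to 0.0734 to 0.112 CPM at 2 weeks and up to 0.089 to 0.147 CPM at 4 weeks.

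Snai1 encodes the zinc-finger repressor SNAIL, an early response to TGF-beta that binds E-boxes of cadherin and junction genes (chromosome 2, 167538195 to 167542814, plus strand). At 2 weeks it was at 13.7 CPM in WT f4 and 14.8 in WT m3, at 2.98 in KO f4 and 15.0 in KO m2, and at 0 in WT f1 and m2 and KO f1 and m3. Each genotype thus had 2 libraries without a count. At 4 weeks every library had it: WT at 88.8 in f, 56.0 in f3, 70.2 in m1, 113 in m2 and 99.3 CPM in m3, and KO at 47.2 in f2, 57.1 in m1, 75.6 in m2 and 96.0 in m3. For Snai1 the KO effect was -1.11 on the log2 scale at 2 weeks (SE 3.29, 95% interval -8.92 to 6.69) and -0.37 at 4 weeks (SE 0.23, interval -0.89 to 0.15), with edgeR's adjusted p = 1. The 2-week interval spans large changes in either direction, so a difference was not detectable there. The 4-week estimate had the same sign in all 20 alternatives, from -0.54 to -0.27, without passing the threshold in any.

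The Snai1 promoter is shown because the Snai1 ranges did not overlap between the time points in either genotype and because SNAIL and ZEB factors bind the E-box CAGGTG. The 250 bases before its RefSeq start (RefSeq, GRCm38.p6, plus strand, chr2:167537945-167538194) held 1 such E-box, read here as CACCTG on the gene's strand, 126 bases before the start and in capitals:
Snai1 promoter: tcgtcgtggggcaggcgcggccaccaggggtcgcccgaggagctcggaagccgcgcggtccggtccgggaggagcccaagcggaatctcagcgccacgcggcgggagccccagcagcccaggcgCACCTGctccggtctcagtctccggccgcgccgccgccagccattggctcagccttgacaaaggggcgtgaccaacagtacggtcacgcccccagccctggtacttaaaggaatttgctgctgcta
The same 6 letters on either strand occurred in 17.2% of 32851 promoters. The windows of the other members read, Vim, Zeb2, Cnn1, Twist1 and Acta2, held none.

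Snai2 encodes SLUG, the related repressor (chromosome 16, 14705852 to 14709385, plus strand). In WT at 2 weeks it was at 21.1 CPM in f1, 47.7 in f4, 23.4 in m2 and 73.9 in m3, and in KO at 80.4 in f1, 84.5 in f4, 58.4 in m2 and 49.3 in m3. Its KO libraries lay toward the upper end, and WT m3 lay among them. At 4 weeks WT was at 39.3 in f, 53.2 in f3, 53.8 in m1, 20.5 in m2 and 60.5 CPM in m3, and KO at 40.6 in f2, 43.3 in m1, 34.9 in m2 and 51.1 in m3, inside the WT range. The KO effect was 0.69 (SE 0.55, 95% interval -0.61 to 1.99) at 2 weeks and -0.09 (SE 0.33, interval -0.84 to 0.67) at 4 weeks on the log2 scale, with edgeR's adjusted p = 1 at both. The 2-week value was 0.40 without WT library f1 and 1.27 without WT m3.

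Zeb1 encodes a zinc-finger and homeodomain repressor that endothelial cells also express without transition (chromosome 18, 5591860 to 5775467, plus strand). Its WT libraries of 2 weeks were at 58.0 CPM in f1, 123 in f4, 59.5 in m2 and 64.5 in m3, and its KO libraries at 87.6 in f1, 44.4 in f4, 78.3 in m2 and 129.5 in m3. The genotypes shared one range. At 4 weeks WT was at 71.1 in f, 49.9 in f3, 88.0 in m1, 59.6 in m2 and 50.2 CPM in m3, and KO at 42.5 in f2, 58.1 in m1, 59.6 in m2 and 45.3 in m3. The KO effect was 0.15 (SE 0.46, 95% interval -0.93 to 1.23) at 2 weeks and -0.33 (SE 0.20, interval -0.79 to 0.13) at 4 weeks on the log2 scale, with edgeR's adjusted p = 1. At 2 weeks the sign turned, to -0.49, without the KO libraries m2 and m3. Those libraries had summed CPM of 9 neutrophil markers of 4104 and 3150, against 19.95 to 238 in the other 15 libraries, and the part of these cells in any 2-week value was not tested. Exons of Zeb1 overlap Gm10125 on the opposite strand.

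Zeb2 encodes the paralogous repressor, which is also abundant in myeloid cells (chromosome 2, 44983632 to 45117395, minus strand). At 2 weeks it was at 8.50 CPM in WT f1 and 6.82 in f4, at 0 in WT m2 and m3, and at 37.8 in KO f1, 0 in f4, 12.6 in m2 and 5.47 in m3. In the 2-week KO libraries 9 monocyte and macrophage markers summed to 116 CPM in f1, 29.7 in f4, 431 in m2 and 314 in m3. In 2-week WT they summed to 7.64 to 58.2 CPM. Lyz2 led the KO sum, averaging 162 CPM against 15.6 in WT, and Adgre1 averaged 5.07 against 0. Csf1r averaged 5.29 CPM in KO against 5.84 in WT. Cd68 and Cd14 had 0 counts in all 2-week KO libraries, against means of 0.73 and 8.475 CPM in WT. The part of such cells in the Zeb2 level was not tested. At 4 weeks WT was at 8.66 in f, 4.78 in f3, 0.12 in m1, 10.7 in m2 and 7.06 CPM in m3, and KO at 15.1 in f2, 3.88 in m1, 9.30 in m2 and 9.06 in m3. For Zeb2 the KO effect was 5.55 at 2 weeks (SE 4.56, 95% interval -5.26 to 16.4) and 0.62 at 4 weeks (SE 0.89, interval -1.40 to 2.63) on the log2 scale, with edgeR's adjusted p = 1. The 4-week value was 0.30 without WT m1 and 1.10 without WT m2. The 2-week fitted value rests on libraries with 0 counts and is no measure of size. Exons of Zeb2 overlap Zeb2os and Gm27761 on the opposite strand and Mir5129 on its own.

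Twist1, a basic helix-loop-helix factor of mesenchyme, had more than 3 counts in 1 library only, KO m3 of 4 weeks, at 1.63 CPM or 43 counts (chromosome 12, 33957671 to 33959829, plus strand). WT f of 4 weeks had 3 counts, and the other 15 libraries had 0. Twist1 did not pass edgeR's filter on low counts in any comparison, and the exact permutation test gave p = 0.722 between genotypes at 4 weeks and p = 1 in the other 3 comparisons. Cdh2, N-cadherin, the cadherin of mesenchymal cells that endothelial cells also carry (chromosome 18, 16588877 to 16809246, minus strand), had counts in some libraries of each group and 0 in others. It was at 0.34 CPM in WT f1 and 3.87 in WT m3 and at 1.65 in KO f1 at 2 weeks, with 0 in the other 5 libraries. At 4 weeks it was at 1.51 in WT f, 0.26 in f3, 0 in m1, 1.19 in m2 and 1.43 in m3, and at 1.17 in KO f2, 1.604 in m1, 0 in m2 and 0.11 in m3. Its 4-week KO effect was -0.25 on the log2 scale (SE 1.57, 95% interval -3.83 to 3.33, edgeR's adjusted p = 1).

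Vim encodes vimentin, the intermediate filament of mesenchymal cells, which endothelial cells carry at rest (chromosome 2, 13573927 to 13582826, plus strand). In WT at 2 weeks it was at 1854 CPM in f1, 1659.9 in f4, 1751 in m2 and 1524 in m3, and in KO at 1264 in f1, 1818 in f4, 1866 in m2 and 1916 in m3. KO f1 stood below the others. At 4 weeks WT was at 1762 in f, 2594 in f3, 1890.0 in m1, 2152 in m2 and 3314 CPM in m3, and KO at 2964 in f2, 1709 in m1, 1498 in m2 and 3291 in m3. The KO effect was 0.02 (SE 0.16, 95% interval -0.37 to 0.40) at 2 weeks and 0.04 (SE 0.31, interval -0.66 to 0.74) at 4 weeks on the log2 scale, with edgeR's adjusted p = 1. Vim had the narrowest 2-week interval of the members.

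**Figure D2:**
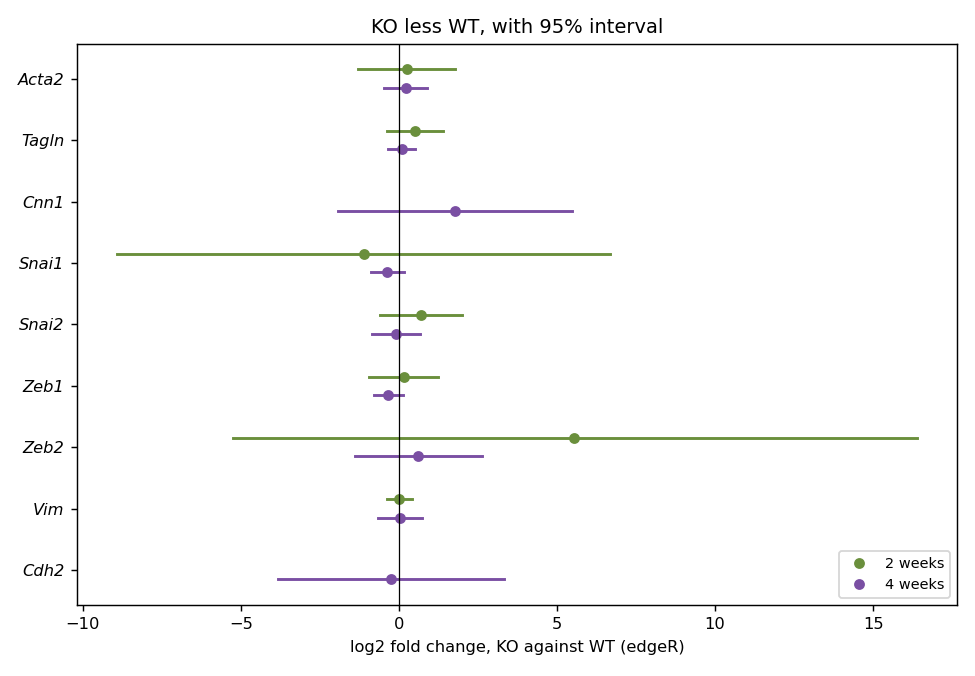
Log2 fold change of KO against WT for each member tested (horizontal axis, edgeR), at 2 weeks in green and at 4 weeks in purple. Points are estimates and lines 95% intervals; every interval includes 0, the narrowest at 2 weeks is that of Vim (-0.37 to 0.40), and those of Snai1 and Zeb2 at 2 weeks span more than 10 log2 units.

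The 4-week libraries fell on 2 sides that both genotypes shared. On the first principal component of the 4-week libraries, computed without the members and holding 39.8% of the variance, WT f, m1 and m2 and KO m1 and m2 lay on one side and WT f3 and m3 and KO f2 and m3 on the other. Vim was at 1498 to 2152 CPM in the first 5 libraries and at 2594 to 3314 in the other 4, without overlap. Zeb1 was the other way round, at 58.1 to 88.0 against 42.5 to 50.2 CPM. These were 2 of the 9 members tested at 4 weeks, and 11.1% of 15209 genes likewise did not overlap between the sides, 3.73% lower on the first side as Vim was and 7.4% higher as Zeb1 was. The summed CPM of 14 marrow stromal and osteolineage markers was 2985 to 3883 in the first side and 1357 to 1823 in the other, and that of 10 pericyte and smooth muscle markers 1351 to 3018 against 699 to 933. The stromal list was led by Cxcl12 and Kitl, which averaged 1956 and 580 CPM in 4-week WT. Lepr averaged 45.4, Col1a1 28.9 and Pdgfra 1.34 CPM there. Of its osteolineage markers Sp7 was at 0 in all groups, while Alpl averaged 236 and Ibsp 16.6 CPM in 4-week WT. The pericyte list was led by Rgs5 and Mcam, at 1145 and 279 CPM. The sums thus mainly follow their leading genes and were not tested as a measure of cell content. Vim was higher where these sums were lower, and the part of such cells in its level was not tested. These sides were read from the libraries themselves and are not groups of the study, so no test was made between them. Acta2, Tagln, Snai1 and Snai2 overlapped between the sides.

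Within the first side the mean of Vim was 1935 CPM for WT (range 1762 to 2152, n = 3) against 1603 for KO (1498 to 1709, n = 2), and within the second 2954 for WT (2594 to 3314, n = 2) against 3127 for KO (2964 to 3291, n = 2). With a term for the side, added after the data were seen, the 4-week KO effect on Vim was -0.13 on the log2 scale, and 0 members passed. In bulk libraries such as these, fewer cells of a type and less RNA per cell cannot be told apart.

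**Figure D3:**
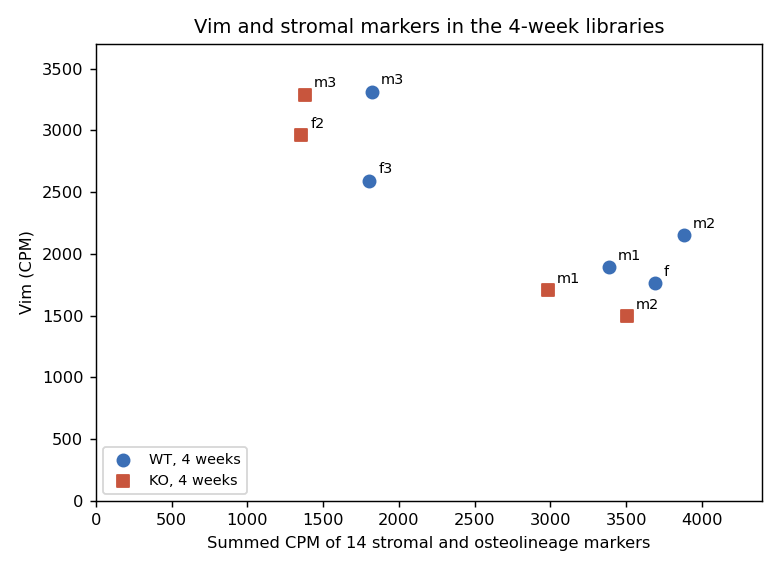
Vim in CPM (vertical axis) against the summed CPM of 14 marrow stromal and osteolineage markers (horizontal axis) in the 9 libraries of 4 weeks, WT as circles and KO as squares, both axes linear from 0. The 4 libraries with marker sums of 1357 to 1823 have the highest Vim (2594 to 3314), and each of these sets holds libraries of both genotypes. Cxcl12 and Kitl lead the sum, which was not tested as a measure of cell content.

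Between 2 and 4 weeks no member passed the adjusted threshold in edgeR. In WT 0 of 9 members passed the adjusted threshold, beside 6.92% of 15703 genes; 1 member, Acta2, had an unadjusted p under 0.05, beside 22.7% of genes, and 1, Snai1, had 2 groups that did not overlap, beside 18.1%. In KO 0 of 9 passed, beside 6.33%; 3 members, Acta2, Cnn1 and Zeb1, had an unadjusted p under 0.05, beside 23%, and 3, Acta2, Cnn1 and Snai1, did not overlap, beside 23.3%. The members' shares were thus near those of all genes. Their median log2 fold change was 0.16 in WT and in KO, where all genes tested had medians of 0.42 and 0.49. These medians depended on the method: with voom they were 1.49 in WT and 1.07 in KO, beside 1.38 and 1.66 for all genes. Over genes with at least 10 counts in every library the medians of all genes were 0.0025 in WT and -0.02 in KO, and those of the 5 members left, Acta2, Tagln, Snai2, Zeb1 and Vim, were 0.26 and 0.22. Because time points differed in complexity and mitochondrial share, every value here compares those libraries and not age alone.

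Acta2 was 1.46 higher at 4 weeks on the log2 scale in WT (SE 0.49, 95% interval 0.41 to 2.51, edgeR's adjusted p = 0.0885) and 1.42 higher in KO (SE 0.51, interval 0.32 to 2.52, edgeR's adjusted p = 0.107). All 4-week KO libraries were above all 2-week KO libraries, and in WT only m1 of 4 weeks fell into the 2-week range (two-sided exact permutation test on log2 CPM, p = 0.0317 in WT and 0.0286 in KO, of 40 such tests over the members). Of 10 pericyte and smooth muscle markers, 8 had estimates above 0 in WT and 7 in KO, with 1 passing in each (beside 6.92% and 6.33% of all genes) and medians of 1.78 and 0.65 on the log2 scale, beside 0.42 and 0.49. Their summed CPM overlapped between the times, at 858 to 1733 at 2 weeks and 701 to 3018 at 4 weeks in WT, and 638 to 1123 and 699 to 2192 in KO. Mcam went from 77.6 to 279 CPM on average in WT and from 77.7 to 284 in KO. Kcnj8 went from 10.4 to 56.9 and from 3.99 to 45.4. Des averaged 39.1 and then 27.0 CPM in WT, and 22.8 and then 29.35 in KO. Rgs5, the most abundant, averaged 1124 and 1145 in WT, and Cspg4 was at 0 in all 2-week WT libraries. The endothelial marker Pecam1 went from 997 to 2844 CPM in WT and from 919 to 2668 in KO. The part of pericytes and smooth muscle cells in the Acta2 difference was not tested. Acta2 passed the adjusted threshold in 3 of 26 alternatives in WT and 2 of 26 in KO: in DESeq2 (adjusted p = 0.0141 in WT and 0.0302 in KO, where it called 19% and 18.6% of all genes), with a filter of at least 10 counts in every library (WT, edgeR's adjusted p = 0.0336, beside 12.8% of genes called), without 2-week WT library m3 (WT at 2.07, edgeR's adjusted p = 0.0399) and without 2-week WT library m2 (KO, edgeR's adjusted p = 0.0338). Fits that left out a single library called 588 to 1261 genes in WT and 504 to 1222 in KO, beside 1086 and 994 with all libraries. Over all alternatives the Acta2 estimate ran from 1.10 to 2.07 in WT and from 1.30 to 1.58 in KO, with adjusted p up to 0.186 and 0.239. Tagln, the other abundant contractile gene, was 0.58 higher in WT (SE 0.29, edgeR's adjusted p = 0.268) and 0.16 in KO (SE 0.31, edgeR's adjusted p = 0.898). Cnn1 had 0 counts in all 4 libraries of 2-week KO and averaged 4.82 ± 2.45 CPM in 4-week KO (SD, n = 4). That mean was 42.9 times the highest 2-week KO floor of 3 counts per library, which covers counting error only. The lowest 4-week KO library was at 2.73 CPM, and edgeR's adjusted p was 0.139. In WT the single 2-week library with Cnn1, m2, turned the estimate to -1.71 (SE 3.44, edgeR's adjusted p = 0.907).

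In WT, Snai1 averaged 7.14 ± 8.26 CPM (SD, n = 4) at 2 weeks against 85.4 ± 22.6 (SD, n = 5) at 4 weeks. In KO it averaged 4.51 ± 7.17 CPM (SD, n = 4) against 69.0 ± 21.5 (SD, n = 4). The exact permutation test gave its smallest possible p in each genotype, 0.00794 in WT and 0.0286 in KO. The same exact permutation test gave p = 0.0159 for Tagln and 0.0476 for Vim in WT, and 0.0286 for Cnn1 in KO. In edgeR the differences were 3.12 (SE 1.93, adjusted p = 0.41) and 3.62 (SE 2.01, adjusted p = 0.332); 4 of the 8 libraries of 2 weeks had 0 counts of Snai1. Zeb1 was 1.08 lower at 4 weeks in KO on the log2 scale, with edgeR's estimate at -1.08 (SE 0.34, 95% interval -1.82 to -0.35, adjusted p = 0.0723), and -0.60 in WT (SE 0.32, adjusted p = 0.311). The exact permutation test gave p = 0.114 for Zeb1 in KO. Zeb1 in KO passed in 4 of 26 alternatives: in DESeq2 (adjusted p = 0.024) and in limma's voom (adjusted p = 0.0466, beside 8% of genes called), and in edgeR without 2-week WT library f4 (adjusted p = 0.0399) or without 2-week KO library f4 (-1.28, adjusted p = 0.0384). Fits that left out a single library called 504 to 1222 genes in KO, beside 994 with all libraries. Over all alternatives the Zeb1 estimate ran from -1.28 to -0.56, the latter without the neutrophil-rich KO libraries, with adjusted p up to 0.442. Snai2 was at -0.20 in WT (SE 0.42, edgeR's adjusted p = 0.911) and -0.98 in KO (SE 0.46, edgeR's adjusted p = 0.224). Vim was at 0.16 in WT (SE 0.26) and 0.15 in KO (SE 0.28), and Zeb2 at 1.68 (SE 2.23) and -0.43 (SE 1.90), with edgeR's adjusted p from 0.823 to 0.961. Both time comparisons rest on the same fit but share no library.

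**Figure D4:**
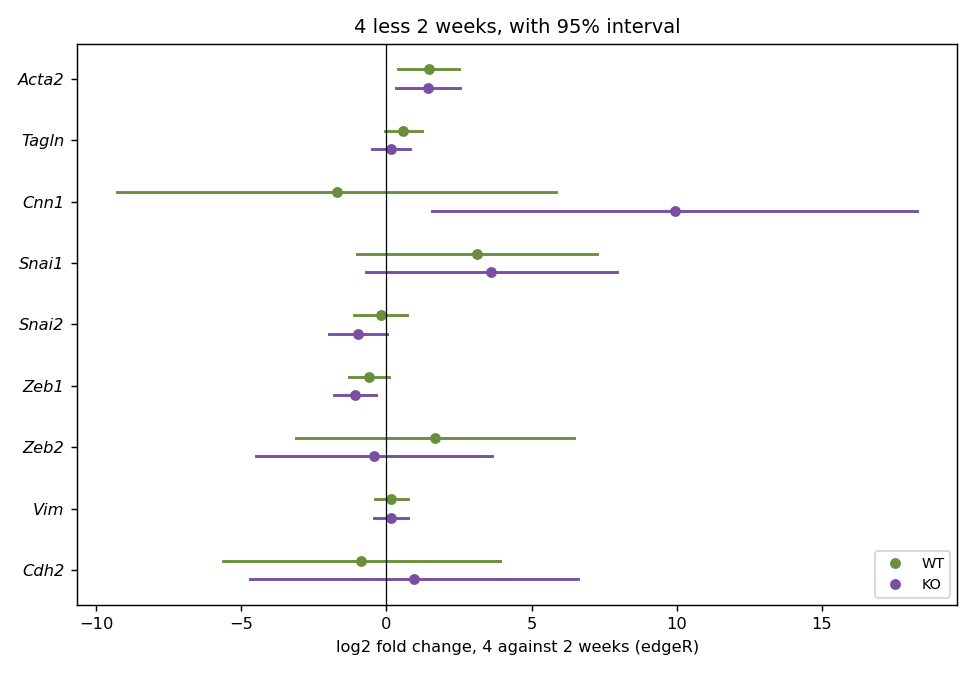
Log2 fold change of 4 against 2 weeks for each member tested (horizontal axis, edgeR), in WT in green and in KO in purple. Points are estimates and lines 95% intervals; Acta2 lies above 0 in both genotypes (1.46 and 1.42) and Zeb1 below 0 in KO (-1.08), without passing the adjusted threshold, and the Cnn1 interval in KO (1.57 to 18.3) depends on libraries at 0 counts.

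The wider programme around these genes was read from 5 lists. Of the other contractile genes, 0 of 10 tested passed between genotypes at 2 weeks (3 higher and 7 lower, median -0.095 on the log2 scale) and 0 of 14 at 4 weeks (11 higher and 3 lower, median 0.11). The smallest p at 2 weeks belonged to Myl9, a myosin light chain, which averaged 56.2 ± 29.4 CPM (SD, n = 4) for WT against 24.3 ± 12.0 (SD, n = 4) for KO, a log2 fold change of -1.18 (SE 0.62, edgeR's adjusted p = 1). At 4 weeks it belonged to Myocd, the cofactor of serum response factor, which was at most 3.06 CPM in any library. Between time points Myl9 rose in KO by 2.51 (SE 0.43, edgeR's adjusted p = 0.00414), from 12.8 to 35.4 CPM at 2 weeks to 141 to 194 at 4 weeks, and it was the 1 gene of 14 that passed there, beside 6.33% of all genes; 0 of 14 passed in WT. Myh11, the smooth muscle myosin that marks mural cells, ranged over 0 to 1.16 CPM (WT) against 0 to 23.7 CPM (KO) at 2 weeks, and over 14.9 to 76.2 against 25.8 to 52.0 CPM at 4 weeks.

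Of 12 other transition factors, 3 were testable at 2 weeks and 7 at 4 weeks, and 0 passed between genotypes. Tcf4, an E-protein partner of TWIST factors, was the abundant one, at 587 ± 105 CPM (SD, n = 4) for WT against 564 ± 115 (SD, n = 4) for KO libraries of 2 weeks, with a KO effect of -0.06 (SE 0.14, edgeR's adjusted p = 1). Foxc1, a forkhead factor of mesoderm and vessels, had 0 counts in all 2-week KO libraries and 3.25 to 7.76 CPM in all 4-week KO libraries. The 4-week KO mean of 5.30 CPM was 47.2 times the highest 2-week KO floor, which covers counting error only. Foxc1 was the 1 of 7 that passed there (edgeR's adjusted p = 0.00909), beside 6.33% of all genes. In 2-week WT libraries it was at 0.03 to 10.03 CPM.

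Mesenchymal matrix and surface genes gave 0 of 12 passing between genotypes at 2 weeks (median 0.55) and 0 of 22 at 4 weeks (9 higher and 13 lower, median -0.18). Col1a1, the collagen of osteoblasts and fibroblasts, had the smallest p at 4 weeks, averaging 28.9 ± 17.3 CPM (SD, n = 5) for WT against 11.7 ± 2.27 (SD, n = 4) for KO, a log2 fold change of -1.25 (SE 0.48, edgeR's adjusted p = 1). Postn, periostin, followed at 12.6 ± 6.98 against 5.42 ± 2.32 CPM (edgeR's adjusted p = 1). From 2 to 4 weeks in WT the matrix proteases Mmp14 and Mmp2 rose, 2 of 22 genes, beside 6.92% of all genes. Mmp2 went from 0 counts in all 4 libraries to 16.4 to 29.6 CPM (edgeR's adjusted p = 0.0447). Its 4-week WT mean of 21.9 CPM was 238 times the highest 2-week WT floor, which covers counting error only. Mmp14 went from at most 0.12 to 6.30 to 31.6 CPM (edgeR's adjusted p = 0.0142). In KO 0 of 22 passed, where 1 library of 2 weeks already had Mmp2 at 22.0 CPM. In the WT comparison 9 of 13 marrow stromal and osteolineage markers were higher and 4 lower (median 0.46, beside 0.42 for all genes). Of 10 pericyte and smooth muscle markers 8 were higher and 2 lower (median 1.78). The part of such cells in Mmp14 and Mmp2 was not tested.

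The endothelial identity list, whose loss the transition would bring, gave 0 of 17 passing between genotypes at either time. At 2 weeks 13 of the 17 were lower in KO with a median of -0.19, beside -0.06 for all genes, and 4 of them had an unadjusted p under 0.05, beside 2.63% of all genes. In the same libraries 10 erythroid markers summed to 61.4 to 253 CPM in WT and 278 to 1258 in KO, without overlap. The 9 neutrophil markers summed to 22.6 to 110 CPM in WT and 107 to 4104 in KO, with ranges that just overlapped. Their part in the endothelial values was not tested. At 4 weeks 10 of 17 were lower, with a median of -0.03. Flt1, a VEGF receptor, had the smallest p at 2 weeks, averaging 626 ± 43.0 CPM (SD, n = 4) for WT against 389 ± 36.9 (SD, n = 4) for KO, a log2 fold change of -0.69 (SE 0.13, edgeR's adjusted p = 0.964). Its KO libraries, at 346 to 436 CPM, lay below all WT libraries, at 594 to 689 CPM. Tie1, the orphan partner of the angiopoietin receptor, had the smallest p at 4 weeks, averaging 1172 ± 187 CPM (SD, n = 5) for WT against 827 ± 242 (SD, n = 4) for KO, a log2 fold change of -0.52 (SE 0.19, edgeR's adjusted p = 1). From 2 to 4 weeks 5 of 17 rose in WT and 7 of 17 in KO, beside 6.92% and 6.33% of all genes called, among them the junction gene Cdh5, by 1.11 (SE 0.14, edgeR's adjusted p = 0.000402) and 1.27 (SE 0.15, edgeR's adjusted p = 0.00023) on the log2 scale. Cdh5, VE-cadherin, was at 190.1 to 323 CPM in the 2-week and at 583 to 759 CPM in the 4-week libraries.

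The TGF-beta inputs of the transition gave 0 of 11 passing between genotypes at 2 weeks (4 higher and 7 lower, median -0.19) and 0 of 13 at 4 weeks (4 higher and 9 lower, median -0.165). Smad7, the inhibitory SMAD that TGF-beta signals induce, averaged 25.9 ± 6.90 CPM (SD, n = 4) for WT against 9.03 ± 10.4 (SD, n = 4) for KO libraries of 2 weeks, a log2 fold change of -1.59 (SE 1.49, edgeR's adjusted p = 1). Tgfbr2, the type II receptor, averaged 149 ± 55.0 CPM (SD, n = 5) for WT against 116 ± 52.5 (SD, n = 4) for KO libraries of 4 weeks, a log2 fold change of -0.45 (SE 0.36, edgeR's adjusted p = 1). In both time comparisons 0 of 13 passed, beside 6.92% of all genes in WT and 6.33% in KO, and in the difference of the KO effect between times 0 genes passed in any of the 5 lists, beside 0.0764%.

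Over the 9 libraries of 4 weeks, the gene whose log2 CPM followed Acta2 most closely among 15209 was another member, Zeb2, with Pearson's r of 0.986, before Adam19 (0.985), Casp4 (0.976), Orc1 (0.973) and Tasp1 (0.97). Spearman's rho for Acta2 and Zeb2 was 0.883. WT library m1 was the lowest in both genes, at 84.0 and 0.12 CPM; without it r was 0.938 and rho 0.833, and without it and KO m1, the libraries farthest from the median, 0.89 and 0.75. Zeb2 was followed by Adam19 and Tasp1 (both 0.991), Acta2 (0.986), Stoml1 (0.978) and Traf3ip2 (0.974). Vim was followed by Ctsz (0.968), Tmbim4 (0.967), Tmem116 (0.963), Dstn (0.961) and Tcn2 (0.96). These values describe 9 libraries of unlike depth that fall on 2 sides of the first principal component, and the top of 15209 correlations over so few libraries carries no test.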

How the data were processed

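RNA-seq counts per gene, 1 table per library, were used for all 17 libraries. The deposited values are whole-number counts that the authors did not normalize, as their differing totals show. Per the submitters' processing notes, cutadapt, STAR and HTSeq 0.6.1p1 and the builds GRCm38 and mm10 were used; the annotation and strand setting are not given in the sources used here. GENCODE M21 (GRCm38) gave symbols for 49326 of 49585 identifiers, positions (1-based) and exon lengths, and RefSeq GRCm38.p6 gave promoters.

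Groups follow the labelled genotype and time. For the KO effect, the 2-week and the 4-week libraries had separate models with sex and genotype terms in edgeR 4.0.16 (R 4.3.3): filterByExpr on genotype, TMM scaling, robust quasi-likelihood F test, Benjamini-Hochberg adjustment over all genes of the fit and a threshold of 0.05. All 17 libraries were fitted together (filterByExpr on group, a mean per group, sex) for the time comparisons and the difference of KO effects. SE is the log2 fold change over the root of F, and 95% intervals use the fit's degrees of freedom. Single values were compared by two-sided exact permutation of log2 CPM (prior count 2), 40 tests over the members, not adjusted. The fit was also run on simulated counts in which only abundant genes were changed. The outcome of that run is not given here and does not bear on the sparse members. Counts of 3 or fewer were taken as the floor. Replicates of a group never agreed within sampling noise (the smallest chi-square per degree of freedom was 44.1).

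All 10 members are named. Of each pathway list at most the 2 genes with the smallest p per genotype comparison, and at most 3 called genes per time comparison, are named. The 5 genes most like Acta2, Vim and Zeb2 are named. The members and lists were chosen with earlier results of these data known. Alternatives covered DESeq2 1.42.0, limma 3.58.1 voom with quality weights, scalings, filters, removal of mitochondrial genes, no sex term, the joint fit, a replicate block and leaving out each library.

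The labels do not say what the numbers in the titles mark. At 2 weeks deviations of the 4 pairs correlated at -0.023 to 0.032, so the numbers did not pair them. At 4 weeks the 3 male pairs correlated at 0.108 to 0.471, which met the criterion for pairing (all over 0.1). Libraries of unlike name reached 0.48 (WT f3 with KO f2) and 0.435 (WT f with KO m1). Each male pair also lay on the same side of the first principal component. The criterion thus does not show that the numbers mark pairs. The blocked fit is given among the alternatives, with all 4-week females in a single block.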

Additional observations from a re-analysis of the deposited data

Results flagged for a closer look

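In 37 sets of a gene and a group, the highest or lowest library was compared with the rest by Dixon's ratio on log2 CPM, and 10 sets had a library that stood apart; chance alone gives about 1 in 20 where values are continuous. In 4 of the 10 (Cnn1, Cdh2 and both Twist1 sets) all other libraries were at 0, so that rate does not apply to them. The WT library m1 of 4 weeks was low in Acta2 (84.0 CPM) and in Zeb2 (0.12 CPM). At 2 weeks the f4 library was high in Tagln in WT (166 CPM) and in KO (296 CPM), and in Zeb1 in WT (123 CPM). KO f1 of 2 weeks was low in Vim (1264 CPM) and was the only KO library of its time with Cdh2 (1.65 CPM). WT m2 of 2 weeks was the only 2-week library with Cnn1 (28.0 CPM). Twist1 stood apart in the single libraries with a count, WT f (0.089 CPM, 3 counts) and KO m3 (1.63 CPM) of 4 weeks.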

How the results depend on the processing

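No member passed between genotypes in any alternative, including DESeq2, leaving out each library and the replicate block. In the difference of KO effects DESeq2 called 1 member (Cnn1), beside 8.44% of all genes. From 2 to 4 weeks it called 1 in WT (Acta2) and 3 in KO (Acta2, Cnn1 and Zeb1), beside 19% and 18.6%; voom called 1 in KO (Zeb1), beside 8%, and a filter of at least 10 counts in every library 1 in WT (Acta2), beside 12.8%. Leaving out each library gave 0 to 1 member called in WT and 0 to 1 in KO, beside 588 to 1261 and 504 to 1222 of all genes. Log2 fold changes near 0 or of sparse genes turned sign, none of them a called value in edgeR; the cause was not tested. With voom, Cdh2 turned to 0.37 (KO effect at 4 weeks) and 1.66 (time in WT), Cnn1 to 3.92 (time in WT) and Zeb2 to 1.07 (time in KO). With at least 10 counts, Vim turned to -0.0015 (KO effect at 2 weeks). The replicate block turned Snai2 to 0.0013 (KO effect at 4 weeks) and changed no call of a member. At 2 weeks, where the numbers did not pair libraries, 4 of 8 correlated best with their own number; at 4 weeks 3 of 6 did. Without the neutrophil-rich 2-week KO libraries m2 and m3, chosen after seeing the data, the KO effect at 2 weeks turned to -0.49 for Zeb1 and -0.22 for Vim, its difference between times to 0.26 for Vim and -0.20 for Cdh2, and the KO time difference to -0.054 for Tagln, 0.69 for Zeb2 and -0.69 for Cdh2. A term for the sides of the first principal component, also chosen later, turned Vim at 4 weeks to -0.13.

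Leaving out each library in turn changed the sign of these log2 fold changes. For the KO effect at 2 weeks the ranges were -3.71 to 1.48 for Snai1, -0.11 to 1.04 for Acta2, -0.15 to 0.52 for Zeb1 and -0.054 to 0.17 for Vim. For the KO effect at 4 weeks they were -0.22 to 0.25 for Vim, -1.88 to 0.17 for Cdh2, -0.32 to 0.087 for Snai2, -0.0058 to 0.40 for Acta2 and -0.027 to 0.23 for Tagln. For the difference of KO effects they were -0.57 to 0.29 for Acta2, -0.75 to 2.67 for Snai1, -0.23 to 0.17 for Vim and -1.95 to 7.92 for Cdh2. From 2 to 4 weeks they were, in WT, -2.65 to 8.88 for Cnn1, -0.45 to 0.40 for Snai2, -1.43 to 4.46 for Cdh2 and -0.0045 to 0.27 for Vim. In KO they were -0.028 to 0.52 for Tagln, -0.77 to 0.16 for Zeb2 and -0.064 to 0.33 for Vim. Other values kept their sign but moved by over 1.5 times. Between genotypes these were 0.10 to 0.75 for Tagln, 0.40 to 1.27 for Snai2 and 2.80 to 8.85 for Zeb2 at 2 weeks, and 1.23 to 6.62 for Cnn1, -0.44 to -0.17 for Zeb1 and 0.30 to 1.10 for Zeb2 at 4 weeks. From 2 to 4 weeks they were -0.75 to -0.23 for Zeb1 and 0.82 to 2.40 for Zeb2 in WT, and 3.20 to 5.91 for Snai1 and 0.14 to 7.42 for Cdh2 in KO. In the difference of KO effects they were 1.51 to 12.8 for Cnn1, -1.29 to -0.48 for Snai2, -0.63 to -0.026 for Tagln, -0.88 to -0.17 for Zeb1 and -2.85 to -1.36 for Zeb2. Alternatives other than leaving out a library moved 2 of these further. The Zeb1 difference of KO effects reached -0.0033 (main fit -0.49), and the Zeb2 KO effect at 2 weeks fell to 1.23 (main fit 5.55).

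Over all genes, calls in the difference of KO effects went from 12 to 6 without a filter, 0 with at least 10 counts, 5 with voom, 1303 with DESeq2 and 251 without the neutrophil-rich libraries, and from 7 to 51 when single libraries were left out. Calls between times went from 1086 (WT) and 994 (KO) to 580 and 567 without a filter, 639 and 626 with at least 10 counts, 1433 and 1257 with voom, and 2938 and 2873 with DESeq2; single libraries left out gave 588 to 1261 and 504 to 1222. With at least 10 counts 48.5% (WT) and 48.7% (KO) of calls were higher at 4 weeks, against 72.7% and 76.5%. Between genotypes DESeq2 called 149 and 17 genes at 2 and 4 weeks, voom 12 at 2 weeks and the joint fit 31 at 2 weeks, where edgeR's separate fits called 0. Cnn1, Twist1 and Cdh2, and Snai1 and Zeb2 at 2 weeks, had libraries with and without counts in one group. Total counts overlapped between the times (26705337 to 40882715 at 2 and 20477400 to 33726630 at 4 weeks), while every 2-week library had fewer genes with a count; the cause was not tested.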
